A study of Mus musculus with 22 samples.

Results

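DNA methylation of retinal progenitor cells (RPCs) from mouse embryos of day 12.5 was compared with that of Müller glia from mice aged 1.5 years. The comparison used 6 of the series' 22 samples, which are 3 of its 12 reduced representation bisulfite sequencing (RRBS) libraries for RPCs and 3 for aged Müller glia. All animals were of the C57BL/6 background and all cells came from the retina. For aged Müller glia, flow cytometry took cells from Rlbp1-GFP reporter mice, so the group holds cells in which that promoter is active, and no injury or drug is named for them. For RPCs the labels name collection from embryos and no sort, reporter or sex, and whether embryos were pooled is not given in the sources used here. Age and cell type differ between the groups together, so their contributions cannot be told apart. RRBS libraries of young Müller glia (2 to 3 months) and of Müller glia from young mice given NMDA into the eye 2 days before collection served only as a description beside the comparison. RNA-seq of 3 RPC and 2 aged Müller libraries, which were other samples, gave a second readout for the same genes.

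In mammals methyl groups sit mainly on cytosines followed by guanine (CpG). Most scattered CpGs are methylated, while CpG-dense stretches at gene starts are usually free of it, and methylation of a start usually goes with a silent gene. DNMT1 copies the marks at cell division, DNMT3A and DNMT3B set new ones, and TET enzymes begin their removal. RPCs divide and give rise to all neurons of the retina and, late, to Müller glia, the radial support cells that clear glutamate, buffer potassium and carry retinoids. RRBS reads the ends of fragments cut at CpG-rich sites, so CpG-dense stretches are covered best. The measure is the level, which is the percent of methylated reads at a CpG position, and each strand of a CpG counts as a position.

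The 6 files shared 950132 autosomal positions, each with at least 10 reads in every library, at a median depth of 47 to 81 reads per library. Levels correlated across positions with r of 0.978 to 0.981 between RPC libraries, 0.962 to 0.973 between aged libraries and 0.922 to 0.943 across the groups, a description over positions that share libraries and CpG density. In RNA, the Müller and proliferation lists fitted the labels. The Müller list of 25 genes summed to 72199 and 72493 CPM (counts scaled to the library total) in aged libraries against 2896 to 3064 in RPCs. The proliferation list of 20 genes summed to 93.2 and 110 against 5002 to 5241. The retinal progenitor list of 22 genes was mixed, with 12 higher and 3 lower in RPCs. It summed to 8478 to 9070 CPM in RPCs against 4454 and 4726 in aged libraries. Photoreceptor markers moved with the groups: all 35 were higher in aged RNA, which summed to 9881 and 14793 CPM against 57.6 to 72.3 in RPCs, where 7 were at 0 in every library. The neurogenic and early neuron list of 26 genes summed to 2903 to 4332 CPM in RPCs against 150 and 157, and 12 blood markers to 1554 to 10143 CPM against 1.68 and 2.73. The part of these other cells in the methylation differences was not tested.

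Methylation was slightly higher in RPCs over the whole of the covered genome. The mean level was 34.4%, 35.0% and 34.8% in the RPC libraries against 32.2%, 32.7% and 31.8% in aged Müller glia. All RPC libraries were above all aged ones, with a difference of 2.51 points (34.7% ± 0.33 against 32.2% ± 0.45, SD, n = 3 each) and an exact two-sided permutation p of 0.1, the smallest that 3 against 3 libraries allow. The pooled level at mitochondrial positions moved with the groups, at 3.85% ± 1.71 in RPCs and 0.809% ± 0.116 in aged libraries (SD, n = 3 each), a gap as wide as that mean difference, and its part was not tested. On single autosomes the difference ran from 1.95 to 2.97 points. Positions at or under 10% made up 56.2% ± 1.3 of all in RPCs and 58.8% ± 0.66 in aged cells, and those at or over 90% made up 22.4% ± 0.21 and 20.8% ± 0.35.

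The difference was widest where CpGs are sparse. In tiles of 1 kb with 1 to 4 measured positions, the mean level was 75.5%, 75.5% and 75.6% in the RPC libraries, against 68.9%, 70.5% and 68.0% in the aged libraries. With 10 to 19 positions per tile it was 49.1% ± 0.32 against 45.8% ± 0.49, and with 40 or more 3.93% ± 0.47 against 3.54% ± 0.12, where the groups overlapped (exact permutation p = 0.3, n = 3 each). Within 1 kb of a gene start the levels were 4.96% ± 0.56 and 3.90% ± 0.13. They were 35.9% and 33.6% from 1 to 5 kb away, 51.1% and 47.3% in gene bodies and 66.0% and 62.4% outside genes. In each of these 4 places every RPC library was above every aged one.

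**Figure D1:**
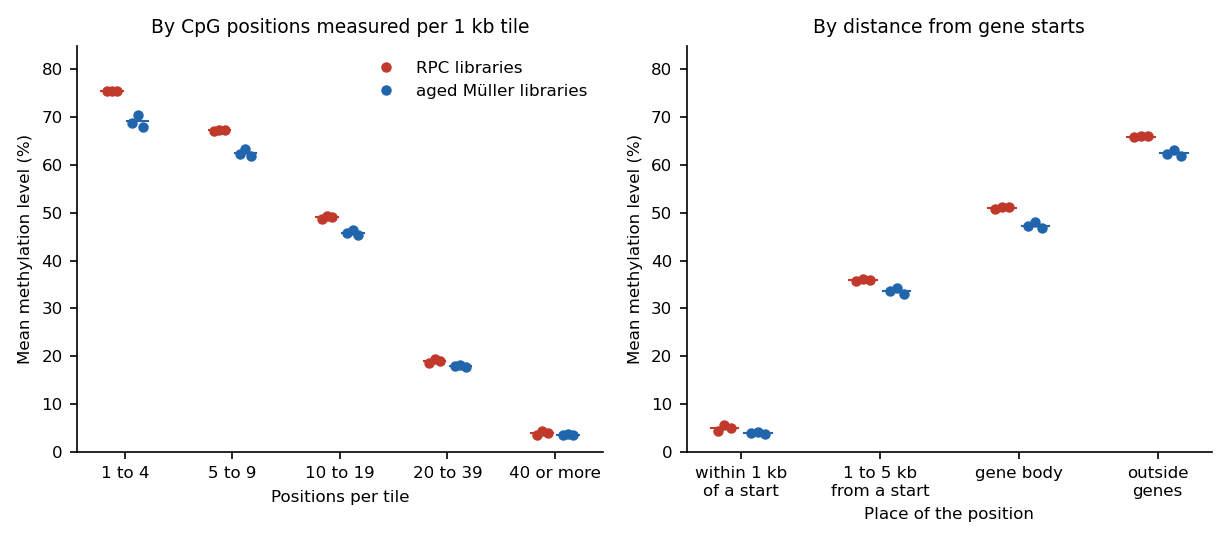
Mean methylation level (%) of each library over shared autosomal positions, by the number of measured positions in the 1 kb tile (left) and by the place of the position (right), where points are libraries and short lines are means of 3. RPC libraries lie above aged Müller libraries in every class except tiles of 40 or more positions. There the groups overlap, at 3.44% to 4.36% in RPCs and 3.41% to 3.64% in aged libraries.

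Single positions differed in both directions, and more of them were higher in RPCs. Of 771991 positions tested with a quasi-binomial model (adjusted p under 0.05 and a difference of pooled reads of at least 10 points, the rule used throughout), 42559 were higher in RPCs (5.51%) and 14021 were lower (1.82%), together 7.33%. Higher positions had a median level of 76.0% in RPCs and 13.6% in aged cells, and lower positions 7.84% and 50.01%. The strands of a CpG are read separately: where both were measured, the partner of a higher position was called the same way in 73.5% and that of a lower one in 61.5%, and it had the same sign in 97.7% and 97.0%. A complete switch, from at least 80% in RPCs to at most 20% in aged cells, was seen at 6916 called positions, and the reverse at 461.

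Tiles of 1 kb gave the same picture over longer stretches. Of 50492 tiles with at least 5 positions, 5196 were higher in RPCs (10.3%) and 1495 were lower (2.96%). The median tile was at 74.4% in RPCs and 31.7% in aged cells among the higher, and at 16.4% and 43.0% among the lower. Differences over 50 points were found in 1055 higher and 48 lower tiles, and complete switches in 378 and 4. Gene bodies had the largest share of higher tiles (14.4% higher, 3.71% lower), stretches from 1 to 5 kb off a start the largest share of lower ones (11.4% and 5.004%), and tiles within 1 kb of a start the least of both (3.51% and 1.41%).

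Among called tiles with at least 10 positions, those with the largest differences lay inside genes, far from annotated starts (mm10 coordinates, which the submitters also call GRCm38). A tile at chr7:68173001-68174000 in Igf1r, the receptor for insulin-like growth factor 1, had levels of 96.8%, 94.7% and 98.3% in RPCs and 4.09%, 2.21% and 1.02% in aged cells over 13 positions. At chr5:124004001-124005000 in Vps37b, a subunit of an endosomal sorting complex, levels were 94.0%, 97.4% and 98.5% against 4.82%, 4.36% and 2.21%. Tcf7l1, a transcription factor of Wnt signalling, held a tile at chr6:72769001-72770000 with 95.9%, 85.3% and 100% against 0.13%, 4.62% and 0%. At these 3 genes each RPC library was at or over 85.3% and each aged library at or under 4.82%. The same separation was seen in the tile of Ptprm, a receptor tyrosine phosphatase, at chr17:66686001-66687000 (95.2% ± 1.8 against 3.62% ± 1.3, SD, n = 3 each).

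In the other direction, the largest difference among tiles with at least 10 positions was in the tile that covered the start of Ece1, the endothelin-converting enzyme, at chr4:137920001-137921000, with its centre 293 bp upstream. Levels there were 13.7%, 16.8% and 16.0% in RPCs and 86.9%, 83.5% and 78.6% in aged Müller glia. Dusp8, a phosphatase of stress kinases, had 12.1%, 8.25% and 6.92% against 72.5%, 70.0% and 79.1% over 28 positions of its tile at chr7:142082001-142083000. In Zfp316, a zinc finger gene, 39 positions at chr5:143255001-143256000 gave 13.8%, 13.3% and 13.8% against 73.4%, 77.1% and 73.1%. The long noncoding RNA 2900052L18Rik had 8.33% ± 1.7 against 75.5% ± 4.7 (SD, n = 3 each) at chr11:120225001-120226000. Tiles were named only where libraries of the groups did not overlap, as in 38.5% of all tiles. In these lower tiles the RPC level was low but above 0. RNA of Igf1r was lower in RPCs (71.3 ± 0.81 CPM, n = 3) than in aged cells (725 and 834 CPM, with 52.2 and 149 CPM in young cells). That of Ece1 was also lower in RPCs, at 1.10 CPM against 169 and 197 in aged and 9.65 and 9.73 in young cells. Ece1 is 1 of 322 genes whose level in each aged and NMDA library was 8-fold or more that in any RPC and young library, a split that follows neither age nor cell type, and its cause was not tested. RNA of Zfp316 did not pass (60.8 and 45.8 CPM, edgeR adjusted p = 0.0571).

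Most called tiles had no adjacent tile called the same way. An adjacent tile counts only if it has at least 5 positions itself. How many called tiles had such a neighbour was not counted, so this does not show that the differences were isolated. Runs of 2 or more adjacent tiles called the same way numbered 199 among the higher and 98 among the lower, and runs of 3 or more numbered 8 and 11, with 4 tiles as the longest. Genes named from these runs were chosen after their values were seen. Several runs lower in RPCs lay over genes of developmental factors. They were over Nkx2-2, a homeobox factor of the ventral neural tube, at chr2:147180001-147184000 (1.59%, 2.97% and 2.16% in RPCs, 27.8%, 24.5% and 28.8% in aged cells), Tbx4, a T-box factor of the hindlimb, at chr11:85888001-85892000 (2.88%, 3.27% and 3.09% against 46.1%, 45.9% and 49.0%), and Rfx4, a factor of brain development, at chr10:84757001-84760000 (2.13% against 43.5%). Among the runs higher in RPCs, 4 of the 8 covered imprinted genes (both of Gnas, that of Cdkn1c and that of Commd1 and Zrsr1), and a run over Akt1, a kinase of growth signalling, was at 90.5% in RPCs and 15.9% in aged cells.

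Fewer gene starts than tiles were called. Within 1 kb either side of the start, 8934 of 16457 annotated protein-coding genes had at least 5 positions and could be tested. Where a gene had several annotated starts, that with the most measured positions was used. The start used can thus lie inside the gene span, as at Rlbp1, Nr2e3, Commd1 and Nfix. The median start was at 1.48% in RPCs and 0.473% in aged cells. There were 208 starts higher in RPCs (2.33%) and 66 lower (0.739%). Without aged replicate 1 the counts were 134 and 40. The mean level, which weights positions equally, also differed by at least 10 points in the same direction at 135 of the 208 and 58 of the 66. Among the other 73 higher starts, 6 had a mean level in the opposite direction. Called starts were poorer in CpGs, with a median of 11 in the 300 bases from 250 before to 50 after the start for either direction, against 22 over all tested starts. Differences over 50 points were found at 25 higher starts and 1 lower start.

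The 250 bases before the start of 6 genes with measured positions there are shown 5′ to 3′ along the gene, from RefSeq (GRCm38.p6). The first 4 had higher methylation in RPCs and the last 2 lower, and they were picked from the named genes to show where the CpGs lay. Capitals mark the CpGs that all 6 libraries covered.
Vwa7, chr17:35016329-35016578, plus strand: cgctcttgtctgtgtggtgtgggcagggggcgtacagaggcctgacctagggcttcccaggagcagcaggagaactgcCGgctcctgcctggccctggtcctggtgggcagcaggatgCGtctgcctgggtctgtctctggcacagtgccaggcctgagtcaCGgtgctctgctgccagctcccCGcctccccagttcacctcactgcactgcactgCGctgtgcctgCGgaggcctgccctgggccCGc
Pafah2, chr4:134402662-134402911, plus strand: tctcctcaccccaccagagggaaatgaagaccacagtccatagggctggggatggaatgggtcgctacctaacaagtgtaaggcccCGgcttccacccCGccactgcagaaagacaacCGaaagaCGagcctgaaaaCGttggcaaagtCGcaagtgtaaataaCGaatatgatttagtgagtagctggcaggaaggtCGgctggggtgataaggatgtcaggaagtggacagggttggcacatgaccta
Ifi47, chr11:49076337-49076586, plus strand: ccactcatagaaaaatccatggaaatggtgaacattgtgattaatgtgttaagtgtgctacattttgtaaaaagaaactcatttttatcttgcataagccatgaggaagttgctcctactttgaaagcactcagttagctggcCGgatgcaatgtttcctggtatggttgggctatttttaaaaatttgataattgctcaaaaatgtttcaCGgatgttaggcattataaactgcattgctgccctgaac
Nfia, chr4:97581693-97581942, plus strand: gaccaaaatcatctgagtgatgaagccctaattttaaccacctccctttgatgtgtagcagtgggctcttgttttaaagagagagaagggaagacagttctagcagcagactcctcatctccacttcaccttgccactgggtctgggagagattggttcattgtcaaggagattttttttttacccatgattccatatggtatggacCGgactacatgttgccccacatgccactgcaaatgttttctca
Krt8, chr15:102004343-102004592, minus strand: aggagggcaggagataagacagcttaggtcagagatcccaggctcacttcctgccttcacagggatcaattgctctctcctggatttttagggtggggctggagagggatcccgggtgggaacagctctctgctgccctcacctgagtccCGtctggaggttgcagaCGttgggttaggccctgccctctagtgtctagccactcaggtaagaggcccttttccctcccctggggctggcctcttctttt
Fignl2, chr15:101054400-101054649, minus strand: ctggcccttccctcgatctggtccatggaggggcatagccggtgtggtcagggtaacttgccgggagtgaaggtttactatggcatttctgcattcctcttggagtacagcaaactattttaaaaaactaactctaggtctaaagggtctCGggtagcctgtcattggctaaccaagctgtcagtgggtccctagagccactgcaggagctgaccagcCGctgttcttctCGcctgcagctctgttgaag
The stretch before Vwa7 held 9 CpGs, of which 7 were measured at 10 positions, with a mean of 90.9% in RPCs and 2.18% in aged cells. The stretch before Pafah2 had 8 of 9 CpGs measured, at 87.8% and 6.53%. Both CpGs before Ifi47 were measured (76.1% and 10.9%), and the single CpG before Nfia was at 23.6% and 0.33%. The 2 measured CpGs before Krt8 were at 25.005% and 62.2%, and the 3 before Fignl2 at 43.4% and 88.1%.

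The 8 starts with the largest differences among those higher in RPCs included the Müller gene Rlbp1 and the glial enzyme gene Aldoc, and the others have varied roles. Vwa7, which encodes a protein with a von Willebrand factor A domain, had the largest difference (start at chr17:35016579): 88.2%, 91.2% and 94.0% in RPCs and 2.63%, 2.58% and 0.923% in aged Müller glia over 11 positions. At each of these positions, from 172 bp upstream to 3 bp downstream, the mean was at least 70.2% in RPCs and at most 7.31% in aged cells. RNA of Vwa7 was 1.52, 3.15 and 0.937 CPM in RPCs and 21.9 and 21.4 CPM in aged cells (log2 −3.53 ± 0.49, SE, edgeR adjusted p = 0.00029).

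Rlbp1, which encodes the retinaldehyde carrier CRALBP and whose promoter drives the reporter used in the sort, was next (start at chr7:79387027). Its 7 measured positions lay 454 to 523 bp downstream of the start and had levels of 97.4%, 90.5% and 92.9% in RPCs against 11.3%, 19.11% and 5.82% in aged cells. The groups were far apart. RNA was 6.21, 3.46 and 2.42 CPM in RPCs and 3461 and 3117 CPM in aged cells (log2 −9.65 ± 0.49, SE, edgeR adjusted p = 6.02e-07). Median depth at these positions relative to all positions was 0.154 to 0.574 in RPC libraries and 0.716 to 1.27 in aged ones, with 12 reads in RPC replicate 3. The sources used here do not describe the reporter construct, and whether it adds reads at this gene was not tested.

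Aldoc, the aldolase of glia and a marker of astroglial metabolism, had 81.4%, 78.3% and 71.7% in RPCs against 14.3%, 15.2% and 9.35% (start at chr11:78324198). Its RNA was 2.17 ± 0.38 CPM in RPCs (n = 3) and 838 and 795 CPM in aged cells (log2 −8.54 ± 0.22, SE, edgeR adjusted p = 3.38e-08). Pafah2, a phospholipase that degrades oxidised phospholipids, had 90.1%, 80.9% and 89.9% against 6.41%, 6.92% and 5.48%, and RNA of 9.43 ± 1.3 CPM against 28.1 and 27.0. Hkdc1, a hexokinase family member, had a start level of 87.1%, 87.1% and 97.9% against 27.7%, 25.5% and 20.8%, and RNA of 3.36 ± 0.63 CPM against 232 and 205. For all 3 genes RPC levels were several times the aged ones and the RNA was higher in aged cells.

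Bglap3, an osteocalcin-related gene with close copies beside it, had 93.0%, 98.8% and 93.1% in RPCs against 17.7%, 18.8% and 12.6%. Aqp2, a water channel of the kidney, had 77.6%, 58.1% and 81.1% against 9.40%, 7.14% and 3.41% at a median of 14 reads per position. Its RNA was at 0 in every RPC and young library and at 6.17 and 8.53 CPM in aged ones, and Aqp2 is in the set of genes that split by library set. Ifi47, an interferon-inducible GTPase, had 89.5%, 77.0% and 82.2% against 25.5%, 21.95% and 8%, with RNA at 0 in RPCs and 2.02 and 0.537 CPM in aged cells. Absence of overlap between libraries was a condition for naming these 8 starts, and it held at 4556 of 8934 tested starts. RNA of Aqp2 and Ifi47 was low in aged cells too.

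Of 13 tested starts of the Müller list, 2 were higher in RPCs (Rlbp1 and Kcnj10, against 2.33% of all tested starts), none was lower and 11 were not called, and the median difference was 1.13 points against 0.89 over all tested starts. Kcnj10, the potassium channel of glial endfeet, had 18.5%, 16.9% and 21.6% in RPCs and 1.32%, 3.99% and 1.51% in aged cells (start at chr1:172341210), and RNA of 0.253, 0.472 and 0.391 CPM against 1215 and 1301. Glutamine synthetase (Glul), the glutamate transporter Slc1a3, Apoe and Sox8 had starts at or under 2.77% in both groups, although their RNA was higher in aged cells, as for Glul at 476 ± 4 CPM in RPCs (n = 3) and 28230 and 29467 CPM in aged cells. Gfap, the intermediate filament of reactive glia, had a partly methylated start that did not pass (69.9%, 65.7% and 53.1% against 38.1%, 60.9% and 53.3%, adjusted p = 0.325), and the groups overlapped. With 2 kb either side it was called, at 16.8 points. A tile centred 1301 bp upstream of the Gfap start was called higher in RPCs, at 43.0% and 14.0%.

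Among gliogenic factors, 1 of 10 starts was higher in RPCs and none was lower, against 2.33% and 0.739% of all tested starts. It was that of Nfia, a nuclear factor I protein that starts glial gene expression (start at chr4:97581943): 14.4%, 18.5% and 26.3% in RPCs against 0.284%, 2.87% and 0.86%. RPC and aged libraries did not overlap, but the call was lost without RPC replicate 2, aged replicate 1 or aged replicate 3 (differences of 19, 17.9 and 18.1 points), and the 7 positions had 12 to 15 reads in the shallowest library. Nfia RNA was 0.633, 1.02 and 0.703 CPM in RPCs, 448 and 461 CPM in aged cells and 35.9 and 45.3 CPM in young ones. Nfix, of the same family, was not called at the start used (2.38% and 4.95%).

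**Figure D2:**
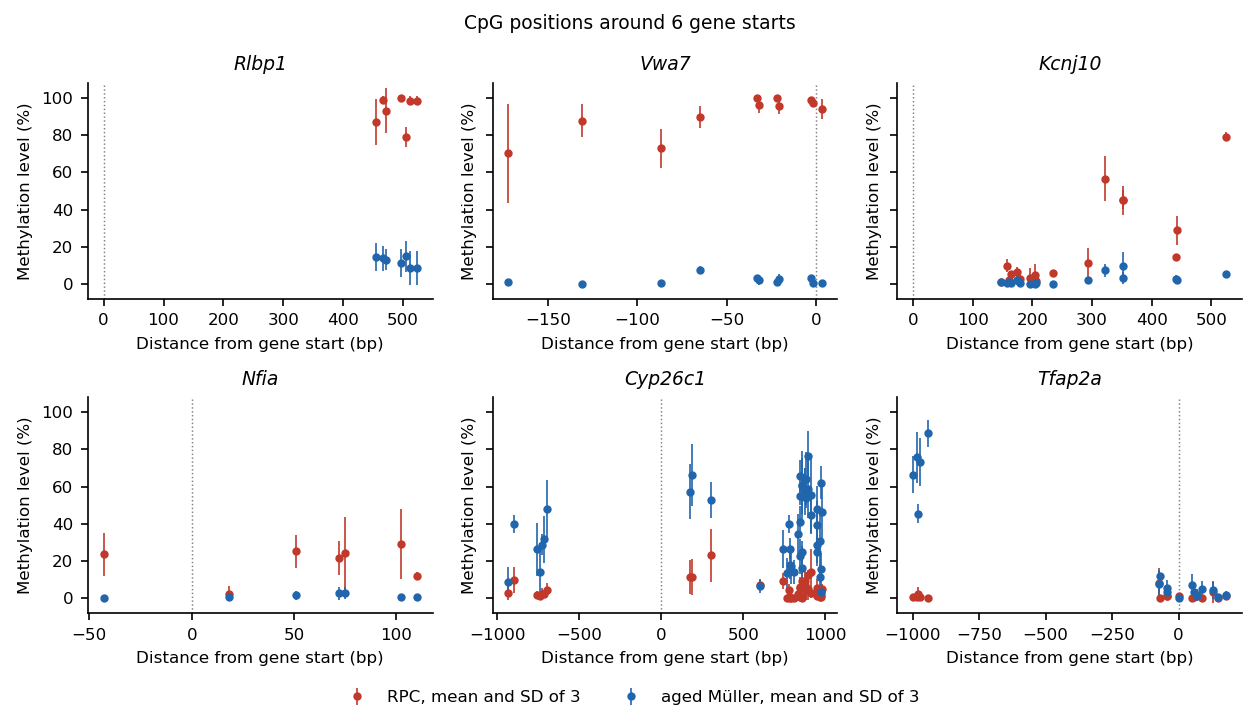
Methylation level (%) of each measured CpG position against its distance from the gene start (bp, negative upstream) at 6 genes, as the mean and SD of 3 libraries per group. Every position of Rlbp1 and Vwa7 is high in RPCs and low in aged Müller glia, while in Cyp26c1 and Tfap2a some positions are high in aged cells and others are near 0 in both groups.

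Of 7 tested starts of photoreceptor genes, 2 were higher in RPCs (against 2.33% of all tested starts), none was lower and 5 were not called, with a median difference of 3.20 points. Nr2e3, the rod factor that represses cone genes, had 92.7%, 89.0% and 93.8% in RPCs and 25.02%, 41.1% and 36.3% in aged libraries. Prph2, a structural protein of outer segment discs, had 92.9%, 86.3% and 88.6% against 53.9%, 45.8% and 49.4%. Both of these starts were high in RPCs and intermediate in the sorted Müller libraries, and did not overlap. RNA was 59.8 CPM for Nr2e3 and 631 CPM for Prph2 in aged libraries on average, against 0.231 and 0.0996 CPM in RPCs, beside the rod markers given above. Whether the reads in the Müller libraries come from Müller cells or from photoreceptors was not tested.

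The 8 starts with the largest differences among those lower in RPCs included genes of epithelia, kidney, somites and the early embryo. Krt8, the keratin of simple epithelia, had 13.2%, 24.0% and 21.9% in RPCs and 69.2%, 72.1% and 69.5% in aged Müller glia (start at chr15:102004342), the only lower start with a difference over 50 points. Fignl2, an AAA ATPase gene, had 15.2%, 18.9% and 18.4% against 63.7%, 64.9% and 63.2%. Lrrc4, a synaptic adhesion protein, had 18.8%, 18.6% and 17.8% against 64.9%, 57.4% and 67.2%. At these 3 starts each RPC library was at or under 24.0% and each aged library at or over 57.4%.

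Among transcription factors, Pax8, a factor of kidney and thyroid, had 7.97%, 9.51% and 7.66% in RPCs against 54.9%, 50.8% and 48.0% (start at chr2:24475599). Zic4, a zinc finger factor of the dorsal neural tube, had 11.7%, 12.5% and 14.6% against 52.6%, 54.0% and 59.5% at positions 839 to 972 bp downstream of its start. Hes7, the oscillating Notch target of somites, had 13.5%, 18.3% and 21.6% against 58.4%, 64.8% and 56.5%, but the difference was 6.59 points in the same direction and no longer called in a window of 2 kb either side. At all 3, RPC libraries were at or under 21.6% and aged libraries at or over 48.0%.

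Cyp26c1, which degrades retinoic acid, had 4.61%, 5.601% and 3.30% in RPCs against 40.6%, 37.8% and 33.4%. Tdgf1 (Cripto), the Nodal co-receptor of the early embryo, had 2.39%, 3.35% and 2.94% against 35.1%, 36.9% and 31.9% at a median depth of 418 reads. Tbx1, a T-box factor of the pharyngeal arches, had 1.13%, 2.13% and 1.59% against 22.4%, 20.9% and 19.7%, and Tfap2a, a factor of neural crest and amacrine cells, 0.144%, 2.91% and 0.944% against 20.4%, 25.6% and 24.8%. Here RPCs were near 0 and aged cells partly methylated. Within Cyp26c1, position means in aged cells ran from 3.42% to 76.4%, and within Tfap2a from 0.263% to 88.6%. Counting 500 bp either side left Tfap2a at a difference of −2.83 points, no longer called, and 2 kb either side left Tbx1 at −11.1 points, no longer called.

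**Figure D3:**
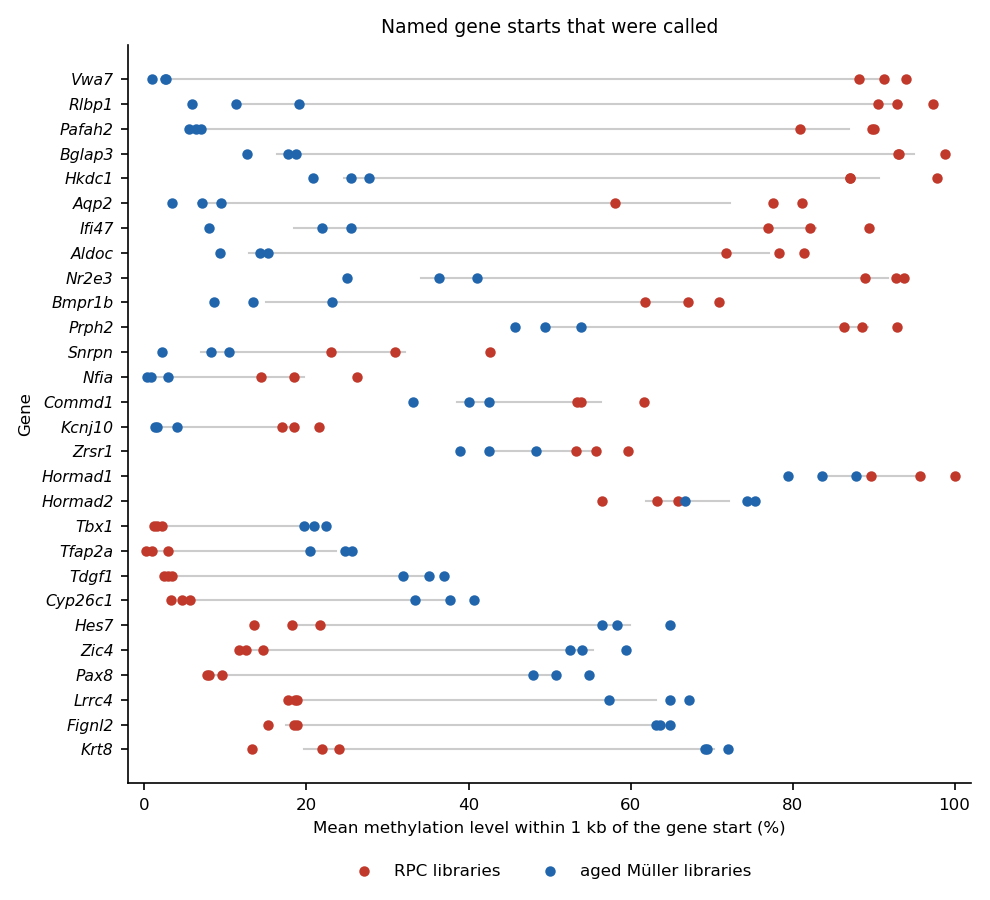
Mean methylation level (%) within 1 kb of the start of each named gene that was called, with 1 point per library and a grey line between the means of the groups. Genes from Hormad2 down are lower in RPCs and those above it are higher. RPC and aged libraries do not overlap at any of these genes, as at 4556 of 8934 tested starts. For the starts named for the largest differences each way, absence of overlap was a condition for naming.

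Genes that mark RPCs and early neurons had starts with little methylation in both groups. Most tested starts did too, with 90.2% at or under 10% in RPCs and 90.8% in aged cells. None of 16 retinal progenitor, 17 neurogenic, 14 proliferation, 17 Notch pathway or 16 Hox starts was called, against 3.07% of all tested starts in either direction. For lists of this size none called is near that share. Atoh7, the factor of retinal ganglion cells, was at 0.28%, 2.17% and 1.83% in RPCs and 0.774%, 0.711% and 0.427% in aged cells, with 439, 314 and 405 CPM of RNA in RPCs and 0 in both aged libraries. The proneural gene Neurog2 was at 1.26% and 0.3% with 73.6 ± 13 CPM against 1.56 and 1.78, and Hmga2, a chromatin protein of stem cells, at 1.18% and 0.397% with 123 ± 15 CPM against 0 and 0. Pax6 and Six6, eye field factors, were at or under 2.27% in each of the 6 libraries. Low levels at these starts were thus found both with and without RNA of the gene. Genes of the germline were the reverse, with a median start level of 92.6% in RPCs and 89.0% in aged cells over 16 starts. Ddx4 was at 81.9% and 82.3% and Dazl at 50.4% and 50.3%. Hormad1 was called higher and Hormad2 lower, at 95.1% and 83.6% and at 61.9% and 72.2%. The call of Hormad1 was lost whichever of the 6 libraries was left out (9.10 to 14.3 points), and that of Hormad2 without RPC replicate 2 or any 1 aged library (−7.60 to −13.0 points).

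No start of the DNA methylation machinery was called among 14, near the 3.07% of all tested starts called in either direction. That of Dnmt3a was at 1.31%, 3.25% and 2.04% in RPCs and 8.83%, 11.9% and 4.44% in aged cells (adjusted p = 0.0325), under the minimum of 10 points. RNA of Dnmt3b was 112, 111 and 104 CPM in RPCs and 6.01 and 5.27 CPM in aged cells (log2 4.27 ± 1.1, SE, edgeR adjusted p = 0.00796), a call lost with either aged library left out. RNA of Dnmt1 was 171 ± 2.8 CPM (n = 3) against 85.6 ± 7.9 (n = 2), and that of Tet1 did not pass (154 ± 3.8 CPM against 167 and 180). Dnmt3a RNA was 0.72 CPM in RPCs and 158 and 163 CPM in aged cells. It was also at 0 and 1.43 CPM in young cells, and Dnmt3a is in the set of genes that split by library set.

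Tiles over the same lists were counted from 5 kb before to 5 kb after each gene. Some of these tiles hold the positions of the start windows again, as at Rlbp1. In the Müller list 19 of 57 tiles were higher in RPCs (33.3%, against 10.3% of all tiles) and 0 lower, and in the photoreceptor list 21 of 61 (34.4%) and 0. Without any 1 library these counts were 17 to 21 and 18 to 22. The median difference over the tiles was 1.39 and 2.12 points, against 0.897 over all tiles. The genes named below from these lists were chosen after their values were seen. Kcnj10 had 4 of 6 tiles called, and 1 of them, at chr1:172342001-172343000 with its centre 1291 bp downstream of the start, had 95.1%, 85.2% and 87.8% in RPCs against 2.66%, 2.48% and 4.16%. Glul, with an unmethylated start, had a tile at chr1:153904001-153905000, centred 4572 bp downstream, with 96.1%, 97.3% and 92.7% against 28.1%, 26.1% and 26.4%. RPC and aged libraries were thus separated inside both genes.

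Tiles of the photoreceptor list were higher in RPCs at the interphotoreceptor retinoid carrier Rbp3 in all 3 tiles, for instance 89.1%, 93.9% and 93.7% against 22.003%, 39.9% and 3.06% at chr14:33951001-33952000, and at Prph2 in all 3. Aged replicates varied widely at Rbp3, with aged replicate 3 lowest. Of 23 tiles of lens genes, 6 were higher (26.1%, against 10.3% of all tiles) and 0 lower, with Cryab, a small heat shock protein that Müller cells also express, at 83.2% and 10.01%. The RNA of lens markers summed to 205 and 138 CPM in aged libraries, of which Cryab alone gave 146 and 129 CPM, and to 4.06 to 78.7 CPM in RPCs. Of 13 lens genes with tested RNA, Cryab was the 1 that passed. The part of lens cells, and of the photoreceptor RNA above, was not tested.

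In the Notch pathway, through which neighbouring cells hold each other back from neuronal fate, 14 of 106 tiles were higher (13.2%) and 0 lower, with no start called. These shares are near those over all tiles (10.3% and 2.96%). The tiles below are given as single cases. A tile in the receptor gene Notch1, at chr2:26493001-26494000 and centred 10321 bp into the gene, had 83.1%, 83.3% and 86.4% in RPCs against 4.91%, 5.13% and 2.83%. One in Notch2 had 58.1%, 59.2% and 54.5% against 13.1%, 11.8% and 7.65%. Both receptors had more RNA in aged cells, Notch1 at 228 ± 15 CPM in RPCs (n = 3) and 999 and 1143 CPM in aged cells and Notch2 at 177 ± 13 CPM and 1244 and 1380 CPM.

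Of 119 tiles of the retinal progenitor list, 8 were higher and 3 lower in RPCs (6.72% and 2.52%), at or under the shares over all tiles (10.3% and 2.96%). At chr10:120428001-120429000, centred 47968 bp into Hmga2, levels were 86.5%, 78.7% and 81.5% in RPCs and 4.87%, 5.43% and 4.25% in aged cells, with no RNA count in the aged libraries. Cyclin D1 (Ccnd1) had a tile at 92.2% and 42.6%, with RNA of 1309 ± 121 CPM in RPCs (n = 3) and 296 and 308 CPM in aged cells. In these 2 genes the group with more RNA also had more methylation in the tile. The reverse was measured at Lhx2, an eye field factor, with a tile at 85.9%, 85.2% and 81.0% in RPCs against 24.2%, 26.2% and 21.8%. Its RNA was 1.15 ± 0.40 CPM in RPCs (n = 3) and 295 and 321 CPM in aged cells, but also 3.59 and 2.86 CPM in young cells, and Lhx2 is in the set of genes that split by library set, as Dnmt3a is.

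Of 467 tiles of developmental regulators of other tissues, 30 were lower in RPCs (6.42%, against 2.96% of all tiles) and 4 higher (0.857%, against 10.3%), with 28 to 30 lower without any 1 library. The other tiles were not called, and the median difference was −0.04 points. Of 47 starts of this list 2 were lower (Pax8 and Tbx1) and none was higher, against 0.739% and 2.33% of all tested starts. Tbx4 had 7 of 9 tiles lower, and Nkx2-2 4 of 12. Gata3, a factor of ear and blood lineages, had a tile at chr2:9876001-9877000 with 1.29%, 4.28% and 1.64% in RPCs against 39.98%, 39.8% and 26.1%. Of 36 tiles of pluripotency genes 6 were lower and 1 higher, and 4 of the lower were at Tbx3, which is also a factor of the dorsal retina, with 17.1%, 18.0% and 17.7% against 87.3%, 84.4% and 96.2% at chr5:119689001-119690000. The neurogenic list had 4 lower of 96 (4.17%, near the 2.96% of all tiles) and 1 higher (1.04%, against 10.3%). As a single case, a tile centred 4635 bp upstream of the Neurog2 start had 0.491%, 2.56% and 1.32% against 15.6%, 19.15% and 18.5%. RPC libraries were near 0 at Gata3 and Neurog2, and aged libraries partly methylated. None of 121 Hox tiles was called in either direction.

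Gliogenic, Wnt and BMP, and inner retinal lists were mixed. They had 11 higher and 10 lower of 100 tiles, 18 and 16 of 197, and 8 and 11 of 119, where 10.3% of all tiles were higher and 2.96% lower. Nfix alone had 3 tiles higher and 5 lower of 19. Wnt7b, a Wnt ligand, had a tile at 80.5%, 88.1% and 89.8% in RPCs and 4.68%, 2.11% and 0.544% in aged cells. The start of Bmpr1b, a BMP receptor, was at 67.1%, 61.8% and 70.9% against 23.2%, 8.55% and 13.4%. It was the only 1 called of 31 in this list, near the 3.07% of all tested starts called in either direction. In Rbpms, an RNA-binding protein that marks retinal ganglion cells, 5 of 12 tiles were lower, 1 of them at 33.9% and 78.2%.

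**Figure D4:**
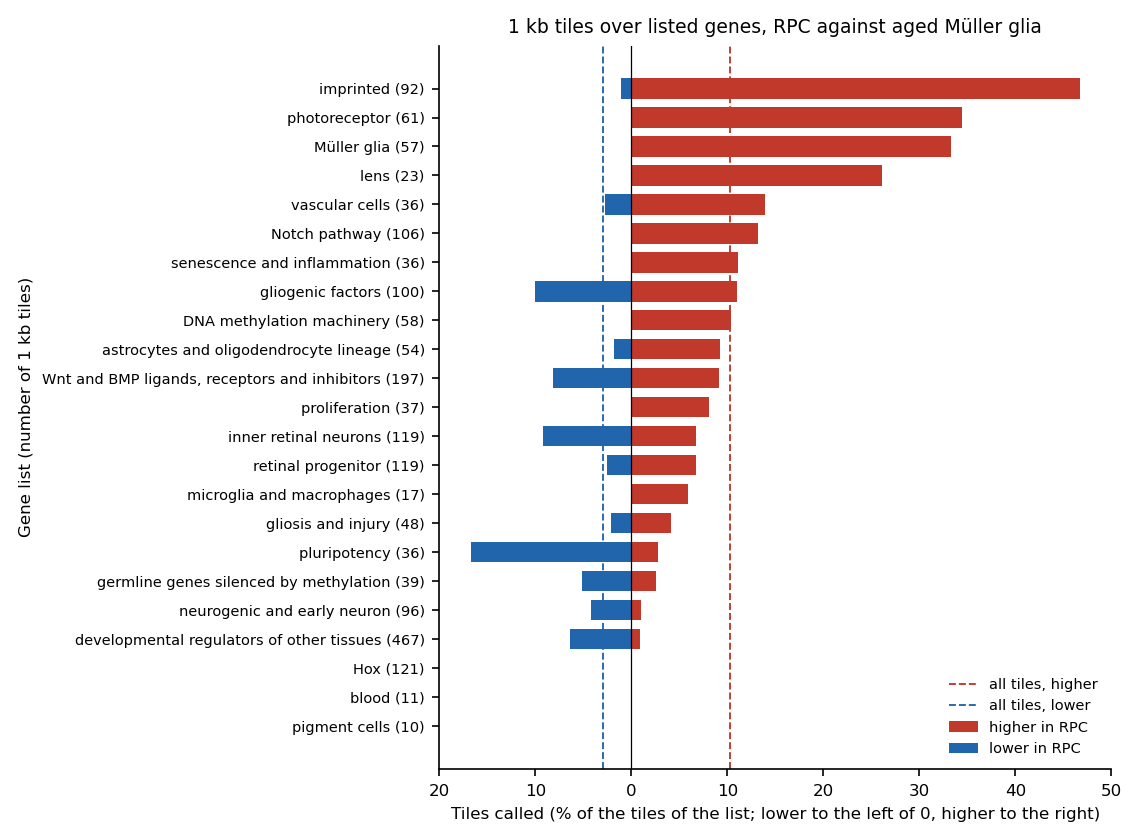
Percent of the 1 kb tiles of each gene list that were called higher (right of 0) or lower (left of 0) in RPCs, with the number of tiles in brackets and dashed lines at the share over all tiles (10.3% and 2.96%). Imprinted, photoreceptor and Müller lists have the longest bars to the right, and pluripotency genes and gliogenic factors the longest to the left.

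Imprinted genes, which carry methylation on the chromosome of 1 parent only, had many tiles that were higher in RPCs. Of 92 tiles 43 were higher (46.7%, against 10.3% of all tiles) and 1 lower, with a median difference of 10.05 points. Of 23 starts 7 were higher, none was lower and 16 were not called, with a median difference of 1.15 points, while 2.33% of all tested starts were higher. The 7 were Snrpn, Plagl1, Nnat, Gnas, Zrsr1, Commd1 and Magel2. The starts of Zrsr1 and Commd1 lie within 1000 bp of each other, so their windows share positions. At Snrpn, a splicing protein gene, levels were 42.7%, 23.0% and 30.9% in RPCs and 8.23%, 10.4% and 2.19% in aged libraries. At Gnas, the stimulatory G protein gene, they were 55.9%, 25.6% and 44.6% against 7.68%, 21.97% and 4.78%. Libraries of the same group differed widely at both, and at Gnas RPC replicate 2 (25.6%) was close to aged replicate 2 (21.97%). Over 9 imprinted starts, chosen after their values were seen, the mean was 51.3%, 45.6% and 49.99% in RPCs, 34.9%, 36.2% and 22.1% in aged libraries, 9.39% to 34.7% in young ones and 43.2% to 49.5% after NMDA. Young libraries, of the same cell type as the aged, reached the lowest values, and NMDA libraries were at the RPC level. The part of whatever sets these library differences in the other results was not tested.

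Levels in the 6 Müller libraries that the tests did not use lay, on the median, near the aged level in most cases. At positions higher in RPCs, the median level per library was 71.6% to 72.9% in RPCs, 8% to 13.3% in aged cells, 13.2% to 16.8% in young Müller glia and 29.3% to 38.7% after NMDA. At positions lower in RPCs it was 5.78% to 6.90%, 44.9% to 45.8%, 40.7% to 43.8% and 44.3% to 45.7%. Young libraries therefore lay near aged ones in both sets, and NMDA libraries lay between in the first set only. Over all tiles with a level in all 12 libraries, NMDA medians were also the highest, at 15.9% to 20.6%. There RPC medians were 12.3% to 13.3% and aged medians 8.37% to 10.2%. The part of this higher NMDA level in the first set was not tested. Some single starts followed the order of the position sets. At Vwa7 young libraries had 5.52%, 3.98% and 5.68% and NMDA libraries 9.37% to 15.9%. At Pafah2 young libraries had 9.31%, 8.19% and 7.54% and NMDA libraries 56.7%, 28.2% and 41.6%. At Tbx1, by contrast, young (18.03% to 19.98%) and NMDA (20.5% to 24.9%) libraries were both at the aged level. Nr2e3 did not follow, with young libraries at 57.0% to 76.1%, above every aged one. These comparisons have no test here.

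RNA was set beside the called starts. Across 18931 genes tested with edgeR (adjusted p under 0.05), 4987 were higher in RPCs (26.3%) and 5494 lower (29.0%), so that a difference is common. Of the 208 starts higher in RPCs 162 had tested RNA, of which 79 were lower in RPCs (48.8%) and 32 higher (19.8%), with a median log2 difference of −0.90. Genes at starts with no call gave 31.3%, 30.7% and 0.09. At the 25 starts with a difference over 50 points, 20 had tested RNA, of which 18 were lower, with a median of −5.82. In this set 3 genes had no RNA count in RPCs, so their fitted values depend on the prior count, and with those genes at the bound that 3 counts over the RPC libraries allow the median was −5.03. The exceptions were Kcnh2, a potassium channel, higher at log2 1.41 ± 0.25 (SE, edgeR adjusted p = 0.00139), and Elmo1, which did not pass (log2 1.59 ± 1.2, adjusted p = 0.308). Without genes that split by library set, 72 of 155 at higher starts were lower and 32 higher.

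At starts lower in RPCs the RNA showed no such direction. Of 66, 50 had tested RNA, of which 13 were higher and 16 lower in RPCs, with a median log2 difference of 0.06 (0.04 with genes at 0 in aged cells at that bound over the aged libraries). Krt8 was at 2.28, 6.69 and 1.64 CPM in RPCs and 0.123 and 0.336 CPM in aged cells, a call lost with either aged library left out. Fignl2 was higher in RPCs (82.5 ± 5.2 CPM, n = 3, against 32.4 and 32.0, log2 1.36 ± 0.17, SE, edgeR adjusted p = 0.000148) and so was Zic4 (15.4 ± 3.5 CPM against 5.67 and 3.93). Cyp26c1 was lower in RPCs (1.14 ± 0.29 CPM against 2.91 and 4.33), a call lost without RPC replicate 1 or 2 or aged replicate 2, and Tfap2a was close in both (2.67 and 2.51 CPM, adjusted p = 0.919).

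**Figure D5:**
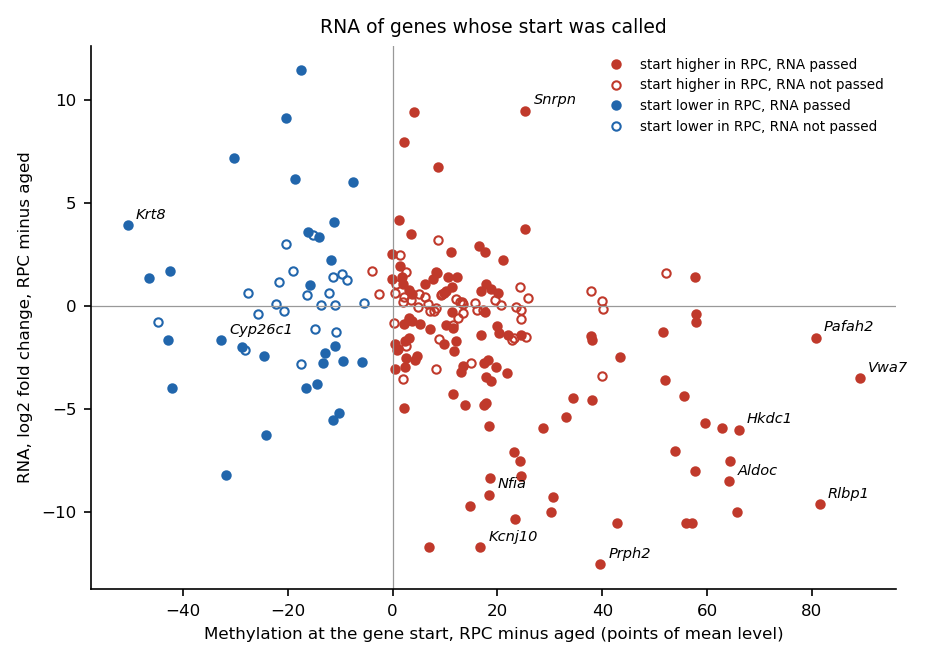
RNA log2 fold change against the difference in mean methylation level at the start (points), both RPC minus aged, for genes with a called start and tested RNA, with filled points where RNA passed an adjusted p of 0.05. Most genes past 50 points on the right lie below 0 for RNA (18 of 20 lower), while genes on the left lie on both sides (13 higher and 16 lower of 50).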

How the data were processed

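Methylation was measured by RRBS in 3 RPC and 3 aged Müller libraries, with 3 young and 3 NMDA libraries described beside them. The deposited values are, per the file headers, the coverage and the percent of methylated reads (freqC) at each CpG position, and the files list only positions with at least 10 reads. The deposited RNA values are read counts per gene from the authors. The tools named in the submitters' processing notes are methylKit 1.4.0, Bismark 0.16.3, HISAT2 2.0.4 and Trim Galore 0.4.3, and the builds mm10 and GRCm38. The RNA counting tool, its strand setting and the treatment of duplicate reads are not given in the sources used here. RRBS reads carry no molecular identifiers in these files, so depth overstates the number of molecules. Groups came from the sample titles, and p-values measure the spread between libraries, whose animals are not named.

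Methylated and unmethylated reads were summed per position, per fixed 1 kb tile (at least 5 positions) or within 1000 bp of a gene start, and fitted by group with a quasi-binomial model whose dispersion was moderated across features with pooled levels of 5% to 95% (scipy 1.17.1, numpy 2.4.6 and pandas 2.3.3 in Python 3.11.15). The prior dispersion was 4.03 for positions, 6.11 for tiles and 9.36 for starts. P-values came from an F test, adjusted by Benjamini-Hochberg over all features tested, with a minimum difference of 10 points in pooled reads. Printed levels are means over positions per library. In the promoter table (RefSeq, GRCm38.p6) 99.9% of 127198 measured positions read CG. Exons and introns were not used here. RNA was fitted over all 10 RNA libraries with edgeR 4.0.16 quasi-likelihood (R 4.3.3, TMM). Scripts were tested on simulated data.

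Named starts were the 8 largest differences each way without overlap between libraries, leaving out predicted genes, the called members of each list (at most 3, by adjusted p), and a fixed set. Named tiles were the 4 largest each way with at least 10 positions and no overlap between libraries. The members and lists were chosen with earlier results of these data known. Alternatives were depth, coverage, window, tile and difference limits, merged strands, sex chromosomes, all 12 libraries, a plain logistic model, limma 3.58.1, DESeq2 1.42.0, RLE scaling, no expression filter, leaving out each library, and a block for the replicate number. Requiring the mean level to differ too, and leaving out genes that split by library set, were added after seeing the data.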

Additional observations from a re-analysis of the deposited data

Results flagged for a closer look

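Positions outside the autosomes were not part of the comparison. At mitochondrial positions, where little CpG methylation is expected, the pooled level was 2.20%, 5.61% and 3.74% in the RPC libraries (3.85% ± 1.71, SD, n = 3) and 0.769%, 0.939% and 0.719% in the aged ones (0.809% ± 0.116). It was flagged because RPC libraries lay above every aged library in data the tests did not use. Young libraries were at 7.57% to 11.5%. At 21371 shared positions of the X chromosome, the mean level was 46.6% ± 2.68 in RPCs and 36.2% ± 0.235 in aged cells, flagged for the same reason. The sex of the animals is not given in the sources used here, and its part was not tested.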

How the results depend on the processing

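The mean difference kept its sign under every alternative run, from 2.29 to 2.85 points, and from 2.30 to 2.74 with each library left out. A plain logistic model called 97917 positions higher and 42323 lower in RPCs, a minimum of 25 points at adjusted p under 0.01 called 27883 and 6828, and the replicate block called 3651 and 710. Of the tiles, 1844 and 669 were called with at least 10 positions and 2712 and 428 at 25 points, and 3237 were higher with at least 20 reads. Of the starts, 64 and 16 were called at 25 points, and 130 were higher with at least 10 positions, 130 with limma, 135 when the mean level had to differ too, 121 with a window of 500 bp and 405 with 2000 bp. Leaving out each library gave 34290 to 37644 higher and 10059 to 12528 lower positions, 4627 to 5131 and 1325 to 1496 tiles, 134 to 222 and 40 to 58 starts (134 and 40 without aged replicate 1), and 3712 to 4257 and 4577 to 4829 genes in RNA, where a lone aged library is assumed to vary like the other groups. The causes were not tested. With the replicate block 189 and 58 starts, 5023 and 1449 tiles and 4086 and 4754 genes were called. Replicate numbers share only a name: deviations of same-numbered libraries correlated at −0.0097, −0.0161 and 0.000767.

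No named result changed direction where it was called under the main setting or the alternative. Sign changes of results called under neither were not counted. Of 641 values for 48 named starts under the alternatives 607 kept their side of the threshold, as did 837 of 915 for tiles and 413 of 439 for RNA. Starts that lost their call under some setting were Commd1, Hes7, Hormad1, Hormad2, Kcnj10, Nfia, Tbx1, Tfap2a and Zrsr1. Gfap gained a call with a window of 2000 bp either side. Depth limits single positions with few reads, as at Aqp2 (14) and Rlbp1 in RPC replicate 3 (12).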

Other observations

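Other called starts, chosen after their values were seen, included genes of interferon response and of photoreceptors. Irgm1, an interferon-inducible GTPase of the same family as Ifi47, had a start level of 16.9%, 17.3% and 14.1% in RPCs and 2.44%, 3.10% and 1.57% in aged Müller glia, with RNA lower in RPCs (log2 −4.84 ± 0.36, SE, edgeR adjusted p = 5.6e-06). Its relative Igtp had 16.1% ± 3.3 and 4.53% ± 0.95 (SD, n = 3 each), with RNA at log2 −4.31 ± 0.30 (SE, edgeR adjusted p = 4.21e-06). Both starts were unlike that of Ifi47 in that methylation in RPCs was low too.

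Prcd, a protein of rod outer segments, had 75.5%, 70.2% and 67.2% in RPCs and 12.04%, 14.9% and 16.9% in aged cells, while Fscn2, a fascin of photoreceptors, had 96.9%, 93.8% and 94.7% against 75.2%, 57.7% and 79.1%. Stra6, the receptor for retinol-binding protein, was 1 of the starts lower in RPCs (1.79%, 14.2% and 11.99% against 29.1%, 35.5% and 19.2%) whose RNA was higher in RPCs (log2 6.15 ± 0.95, SE, edgeR adjusted p = 0.000585).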
